A study of Mus musculus with 60 samples.

Results

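The distal and the proximal piece of the embryonic mouse mandible at E10.5 were compared across all genes on 6 microarrays, 3 of each piece, out of 60 arrays in the series. The arrays were chosen by their titles, which name the age, the jaw and the position. The tissue came from C57Bl/6 embryos, with no mutation or treatment named for either group, and all 6 arrays carry the label batch 3. The other arrays hold the same pieces of older mandibles, E11.5 to E14.5, and of the maxilla over 5 ages. Nothing in the labels tells if the 3 arrays of a piece are separate embryos or how many embryos were pooled for an array. The p-values use the replicate spread that the fit to all 60 arrays gives for each gene, and part or all of that spread may be technical. Each array was made from 3 µg of total RNA, and each value is the log2 signal of a probe set, as RMA, a normalization for Affymetrix arrays, gave it. A gene is represented by its probe set with the highest mean over the 60 arrays, which gave 18193 genes. A difference is always the distal mean less the proximal mean on the log2 scale. A gene was called where limma, fitted over all 20 groups, gave a Benjamini-Hochberg adjusted p under 0.05.

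At this age the mandible is a bud of the first pharyngeal arch, made of cranial neural crest mesenchyme around a mesodermal core, lined by ectoderm outside and endoderm inside. The distal end meets its partner at the midline, and the proximal end lies at the hinge with the maxilla. In mouse embryos, signals from the surface layers pattern the mesenchyme: Bmp4 in the distal ectoderm favours Hand2 and Msx genes, Fgf8 in the proximal ectoderm favours Barx1 and Lhx genes, and endothelin signalling through Dlx5 and Dlx6 sets mandibular identity. Position in the bud later decides which skeletal elements and teeth form.

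The 6 arrays were close to each other in distribution, with medians between 6.11 and 6.143. Correlations between arrays of the same piece ran from 0.9968 to 0.9979, and those between pieces from 0.992 to 0.9929, across genes. No pair of arrays had more than 0.35% identical values. A level of 4.78, the highest 25th percentile of any array, was taken as a floor. Of the 18193 genes, 2910 had both group means at or under it. The labels name the tissue as distal or proximal bone. Of the 7 measured markers of bone, 0 were called by limma and 0 had an unadjusted p under 0.05, and Ibsp, Phex and Dmp1 were at or under the floor in both pieces. The 16 measured markers of neural crest mesenchyme were all above the floor. The 4 sex-linked transcripts gave 0 calls, and 0 at an unadjusted p under 0.05. Over all genes 19.1% were called, so 0 calls in lists this short tell little.

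Position changed 3474 genes (19.1% of those tested). Of these, 1789 were higher distally (9.83%) and 1685 lower (9.26%), and the median difference over all genes was 0.01. Most differences were small. Only 92 called genes were at least 2-fold higher distally (0.506%), and 93 at least 2-fold lower (0.511%). The 3 distal arrays lay above all 3 proximal arrays for 3575 genes (19.7%) and below them for 3159 genes (17.4%). In tissue pieces of this kind, fewer cells of a type and less RNA per cell cannot be told apart.

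**Figure D1:**
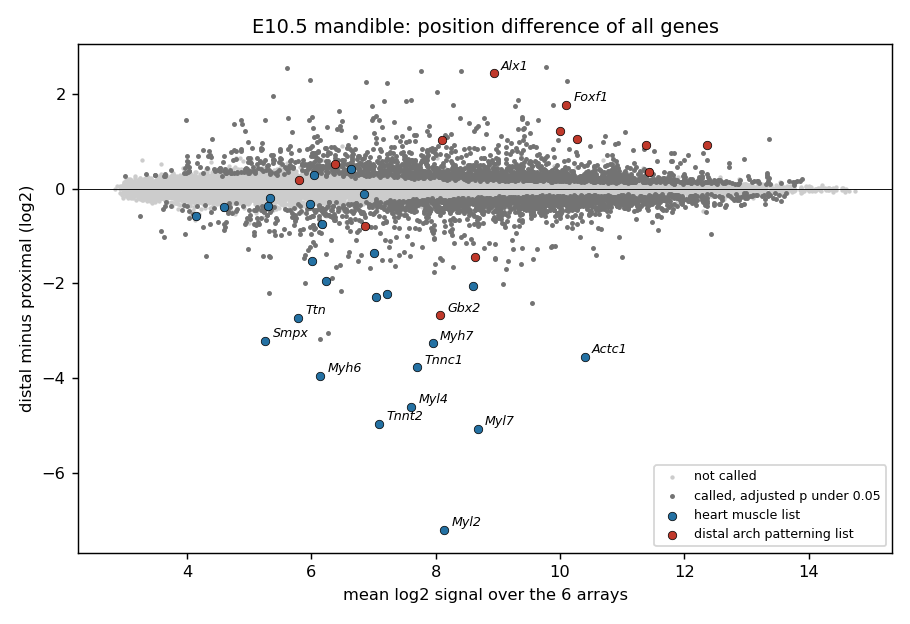
Distal minus proximal difference (log2) of every gene against its mean log2 signal over the 6 arrays of the E10.5 mandible. Dark grey points are genes called at an adjusted p under 0.05, blue points the heart muscle list and red points the distal arch patterning list. The blue points reach -7.19 (Myl2), while the highest red point is Alx1 at 2.43.

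The genes with the highest distal signal relative to the proximal piece included regulators of mesenchyme, of Wnt and Bmp signalling, and of nerve cells. For the leading genes of both directions, separation of the 3 distal from the 3 proximal arrays was a condition of their choice. Rgs5, a regulator of G-protein signalling found in pericytes, had log2 signals of 11.09, 11.06 and 11.04 on the distal arrays, against 8.51, 8.51 and 8.48 on the proximal arrays. Its groups lay far apart, with a difference of 2.56 (SE 0.16), or 5.90-fold (adjusted p = 1.99e-17, limma). Among 9 genes of smooth muscle and pericytes, Rgs5 was the only 1 called higher, and 3 were called lower. The shares over all genes were 9.83% and 9.26%. Alx1, a homeobox factor of facial mesenchyme, had 10.07, 10.18 and 10.20 distally, against 7.76, 7.79 and 7.61 proximally. Every distal array of Alx1 was above every proximal one, and the difference was 2.43 (SE 0.26), or 5.39-fold (adjusted p = 3.29e-10).

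Secreted regulators were among these leading genes. Dkk1, an inhibitor of Wnt receptors, had 10.20, 10.27 and 10.29 distally, against 8.34, 8.40 and 8.41 proximally, a 3.65-fold difference (adjusted p = 6.02e-08, limma). Fst, which binds activins and Bmps, had 8.04, 8.04 and 8.20 distally, against 6.05, 6.72 and 5.96 proximally. For both genes the groups did not overlap, although proximal replicate 2 stood above the other proximal arrays for Fst. Ndnf, a secreted factor named for its action on neurons, differed by 2.26, and Dio2, the deiodinase that activates thyroid hormone, by 2.24. Tac2, the precursor of neurokinin B, differed by 2.29.

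Nhlh2, a basic helix-loop-helix factor of developing neurons, had 6.86, 6.93 and 6.87 distally, against 4.23, 4.50 and 4.29 proximally. The proximal arrays were under the floor, so Nhlh2 was at least 4.30-fold higher distally (adjusted p = 1.20e-06, limma). Rerg, a Ras-like growth inhibitor, was likewise at least 2.98-fold higher. Synpo2, an actin-binding protein of muscle, had 8.94, 9.01 and 9.03 distally, against 6.62, 6.59 and 6.34 proximally, a difference of 2.48. Cavin2, a coat protein of caveolae, differed by 2.47, Rgcc, a regulator of the cell cycle, by 2.23, and the cut-family homeobox factor Cux2 by 2.03. The last of the leading 15 were Hsf2, a heat shock factor (1.88), and Rtl3, a gene derived from a retrotransposon (1.85).

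The next 15 genes held 4 developmental transcription factors. Foxf1, a forkhead factor and hedgehog target, had 11.04, 10.96 and 10.95 distally, against 9.32, 9.18 and 9.15 proximally, a 3.41-fold difference. Isl1, a LIM-homeobox factor, had 10.10, 10.18 and 10.15 distally, against 8.44, 8.39 and 8.37 proximally, a 3.34-fold difference (adjusted p = 1.29e-12, limma). Neither gene's groups came within 1 log2 unit of each other. Gata3, a zinc finger factor, differed by 1.76. Foxa2, a forkhead factor of endoderm, had 6.99, 8.20 and 8.02 distally, against 6.37, 5.88 and 6.50 proximally. Its groups did not overlap, but distal replicate 1 lay nearer the proximal arrays than the other distal ones. The remaining genes included the Bmp antagonist Grem1 (1.63), the growth factor Tgfb2 (1.45), the desmosomal cadherin Dsg2 (1.51), the natriuretic peptide receptor Npr3 (1.49), the matrix protein Mgp (1.44), the myelin protein Pmp22 (1.76) and Dcx, a microtubule protein of young neurons (1.44).

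**Figure D2:**
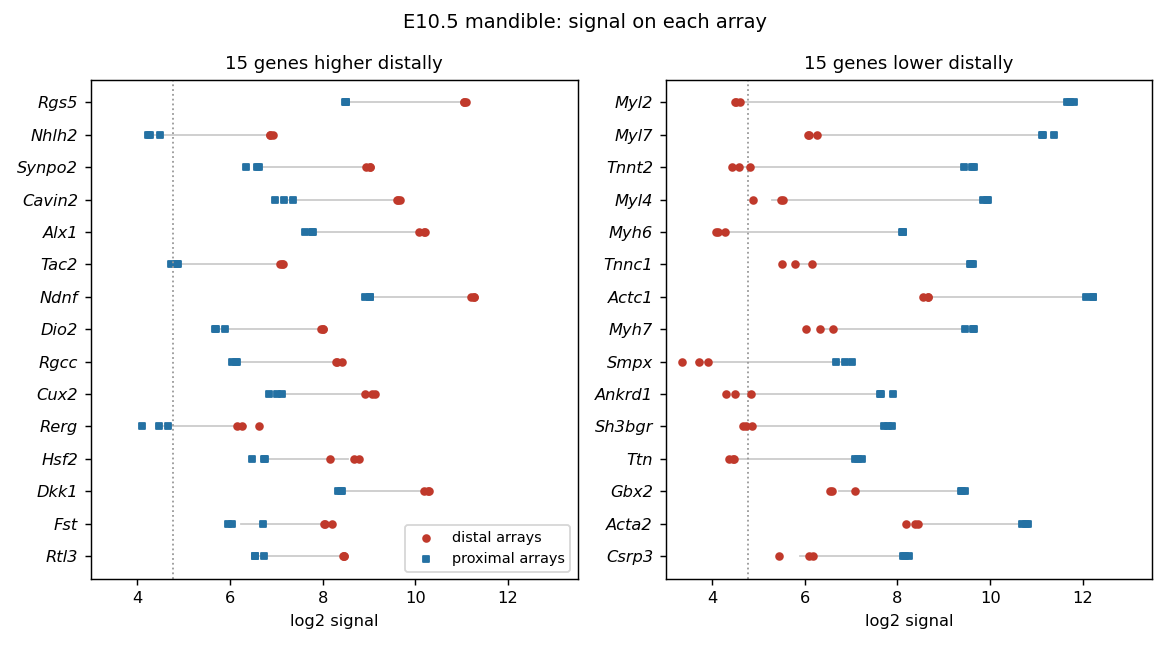
Log2 signal on each array for the 15 genes with the largest called difference in each direction in the E10.5 mandible. Red circles are distal arrays, blue squares proximal arrays, the grey line joins the group means and the dotted line is the floor of 4.78. Separation of the groups was a condition for the genes drawn, and 7 of the genes on the right have a distal mean at or under the floor.

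The genes lowest distally were mostly those of the contractile apparatus of heart muscle. Of the 15 with the largest lower difference, 11 are on the heart muscle list, and 3 of the next 15. None of the 30 leading higher genes is on it, and the list holds 25 of the 18193 genes. Its members were chosen with earlier results of these data known, so the overlap is not independent of them. Myl2, the ventricular myosin regulatory light chain, had 4.52, 4.49 and 4.61 distally, against 11.66, 11.73 and 11.80 proximally. The distal arrays were under the floor and the proximal ones well above it, so Myl2 was at least 124-fold lower distally (adjusted p = 2.16e-29, limma). Myl7, the atrial light chain, had 6.08, 6.09 and 6.27 distally, against 11.14, 11.13 and 11.37 proximally. Its groups were separated by 33.5-fold, a difference of -5.07 (SE 0.14, adjusted p = 1.37e-32).

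The thin and thick filament genes followed. Tnnt2, cardiac troponin T, had 4.42, 4.58 and 4.82 distally, against 9.43, 9.66 and 9.60 proximally, and was at least 27.3-fold lower. Its probe set can match several related transcripts, as its suffix marks. Actc1, cardiac alpha actin, had 8.67, 8.56 and 8.65 distally, against 12.07, 12.22 and 12.21 proximally, a difference of -3.54 (SE 0.24). Unlike Myl2 and Tnnt2, Actc1 was clearly above the floor in both pieces. Myh6, the alpha myosin heavy chain, was at least 10.1-fold lower distally. Myh7, the beta chain, differed by -3.26, Myl4 by -4.61, troponin C (Tnnc1) by -3.77 and the muscle LIM protein Csrp3 by -2.28. The giant sarcomere protein Ttn was at least 5.18-fold lower distally, the small muscle protein Smpx at least 4.23-fold, the ankyrin repeat protein Ankrd1 at least 7.56-fold, Sh3bgr at least 7.95-fold and the myosin chaperone Unc45b at least 3.10-fold.

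Beside muscle genes, the 30 leading lower genes held patterning factors and inhibitors of signalling. Gbx2, Fgf8, Shox2 and Emx2 are given with their lists. Sim2, a basic helix-loop-helix factor, had 5.25, 5.42 and 5.52 distally, against 7.62, 7.61 and 7.42 proximally, a 4.45-fold difference with no overlap (adjusted p = 2.58e-10, limma). The collagen Col8a2 had 8.14, 8.01 and 8.06 distally, against 10.09, 10.06 and 10.10 proximally, a difference of -2.02. The Wnt inhibitor Dkk4 (-1.89), which runs opposite to its relative Dkk1, the Wnt and Fgf inhibitor Shisa3 (-1.65) and the protocadherins Pcdh8 (-1.68) and Pcdh10 (-1.64) followed. The remaining genes were the muscle genes Myl3 (-2.23), Tnni1 (-2.04), Ldb3 (-2.00), Tnni3 (-1.95) and Hspb7 (-1.62). For none of the 60 leading genes with further probe sets was another probe set called in the opposite direction. Further probe sets of Rgs5 and Tgfb2, among others, were called in the same direction. Some of other genes were not called, such as those at 0.168 for Cux2, 0.245 for Cybrd1, -0.295 for Sim2 and -0.096 for Myl4. The differences given hold for the probe set used.

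Over the whole heart muscle list, 18 of 25 measured genes were lower distally and 1 higher, with a median difference of -2.04. This count too is of members chosen with earlier results of these data known. Over all genes, 9.26% were called lower and 9.83% higher. The summed linear signal of the list ran from 1740 to 1750 on the distal arrays, against 15700 to 17400 on the proximal arrays. Distal means were at or under the floor for 7 of the 25. The members did not all move. The split by role that follows was not among the planned lists. Of the 19 genes of the contractile apparatus, calcium handling and natriuretic peptides, 18 were lower by limma and 0 higher (0 higher at an unadjusted p under 0.05), with a median of -2.72. The exception was the calcium channel gene Ryr2 (-0.39, adjusted p = 0.0607). Of the 6 cardiac transcription factors and cofactors, 0 were lower by limma (1 at an unadjusted p under 0.05) and Nkx2-5 was higher (0.41), with a median of -0.16. The call of Nkx2-5 was lost without distal replicate 3 (0.30, adjusted p = 0.145). Tbx5 gave 0.29, Gata4 -0.36, Gata6 -0.12, Tbx20 -0.20 and Myocd -0.33, and none of these 5 was called. Phospholamban (Pln) differed by -1.53, alpha actinin 2 (Actn2) by -1.37 and the natriuretic peptide Nppb by -0.75. Nppa was called lower, but both of its means were under the floor.

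Markers of other muscle gave a different count, where 9.83% of all genes were called higher and 9.26% lower. Of 19 measured skeletal muscle genes, Ttn alone was called, and it is shared with the heart list. Without it, 0 of 18 were called by limma and 3 were higher at an unadjusted p under 0.05, with a median of 0.04. Up to 4 of the list were called higher under other fits, by array quality weights, only batch 3 or only the arrays compared. Their summed signal was 1810 to 1950 distally, against 1810 to 1840 proximally. Among 9 genes of smooth muscle and pericytes, Rgs5 was higher, and Acta2 (-2.42), Tagln (-1.03) and Cnn1 (-0.85) were lower. Acta2, smooth muscle actin, had 8.43, 8.39 and 8.19 distally, against 10.68, 10.77 and 10.81 proximally. Its probe set can match several related transcripts, as its suffix marks. Its further probe sets, with means under the floor, were not called (-0.036 and 0.055). Of 10 markers of pharyngeal mesoderm, the source of heart and jaw muscle cells, Isl1, Ebf2 (1.12) and Ebf3 (0.59) were higher, and Ebf1 (-1.41) and Lhx2 (-0.89) were lower. The part that other tissue in a piece had in the heart muscle values was not tested.

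The promoters of the heart muscle genes are shown because these genes moved together and because the CArG box, the binding motif of serum response factor, is known from muscle promoters. In the 250 bases before the start of each gene (RefSeq, GRCm38.p6), searched on both strands, 439 of 27025 promoters held a CArG box (1.62%). Among the 25 heart muscle genes, 21 had a promoter in that table and 3 of them held the box (14.3%). Among the 30 leading higher genes, 22 had a promoter and none held it. Among the 13 distal arch genes, of which 8 were higher distally and 3 lower, 7 had a promoter. Of these 7, Cited1 held the box (14.3%). Capitals mark the box, and each sequence runs 5′ to 3′ in the direction of its gene. The box lay 61 to 52 bases before the start of Myl7 (chr11:5898783-5899032, minus strand), 47 to 38 before Actc1 (chr2:114052876-114053125, minus strand) and 85 to 76 before Myl3 (chr9:110763428-110763677, plus strand). A match describes the letters in the window and does not show binding.
Myl7: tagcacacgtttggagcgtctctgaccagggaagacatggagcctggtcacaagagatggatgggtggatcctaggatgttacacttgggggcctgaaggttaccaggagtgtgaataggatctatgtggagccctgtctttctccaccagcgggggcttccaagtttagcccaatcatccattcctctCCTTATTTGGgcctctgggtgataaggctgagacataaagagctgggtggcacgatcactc
Actc1: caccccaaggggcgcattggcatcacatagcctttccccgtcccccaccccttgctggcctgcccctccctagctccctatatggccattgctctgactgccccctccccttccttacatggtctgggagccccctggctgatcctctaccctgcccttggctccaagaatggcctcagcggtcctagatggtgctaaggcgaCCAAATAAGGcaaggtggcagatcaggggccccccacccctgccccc
Myl3: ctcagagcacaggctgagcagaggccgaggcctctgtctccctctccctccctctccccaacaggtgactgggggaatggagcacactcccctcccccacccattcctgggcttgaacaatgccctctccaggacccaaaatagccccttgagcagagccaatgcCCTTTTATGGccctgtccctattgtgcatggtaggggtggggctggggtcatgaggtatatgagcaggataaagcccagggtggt

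Genes of the distal part of the arch were mostly higher distally. Of 13 measured genes on the distal arch patterning list, 8 were higher and 3 lower, with a median difference of 0.92. Over all genes the shares were 9.83% and 9.26%. Hand2, a basic helix-loop-helix factor that sets distal identity, had 12.87, 12.83 and 12.78 distally, against 11.96, 11.85 and 11.93 proximally. These groups were apart by 0.92 (SE 0.12, adjusted p = 2.38e-08, limma), and its relative Hand1 by 0.53. Bmp4 had 10.56, 10.66 and 10.63 distally, against 9.45, 9.32 and 9.43 proximally, a 2.32-fold difference. Msx2, a homeobox target of Bmp signalling, had 10.76, 10.84 and 10.80 distally, against 9.85, 9.70 and 9.71 proximally, a 2.07-fold difference. All 3 distal arrays were above the proximal ones for each of these genes. Foxf2 (1.03) and the transcriptional cofactor Cited1 (0.92) were higher as well as Alx1 and Foxf1. Msx1 had 11.67, 11.57 and 11.60 distally, against 11.27, 11.26 and 11.24 proximally, and was not called (0.35, adjusted p = 0.321), although its groups did not overlap. Alx4 was not called (0.18).

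The 3 lower members of that list were Gbx2, Dlx3 and Dlx4. Gbx2, a homeobox factor of the pharyngeal arches, had 6.55, 6.58 and 7.09 distally, against 9.40, 9.36 and 9.46 proximally. The groups were 6.36-fold apart, with the higher signal proximally (-2.67, SE 0.24, adjusted p = 1.82e-12, limma). Dlx3 had 7.91, 7.79 and 8.05 distally, against 9.35, 9.34 and 9.38 proximally, a difference of -1.44, and Dlx4 differed by -0.79. The data therefore went against the list's name for these 3 genes.

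Promoters of 2 distal genes held the homeodomain core TAATTA, which many Dlx, Msx and Alx factors can bind, and are shown for that. The motif, counted on both strands, was in 1527 of 27025 promoters (5.65%). Of the 13 distal arch genes, 7 had a promoter in the table, and Hand2 and Msx2 held it (28.6%). Of the 13 proximal arch genes, 12 had a promoter and none held it. Capitals mark the core, 175 to 170 bases before the start of Hand2 (chr8:57320733-57320982, plus strand) and 187 to 182 before that of Msx2 (chr13:53472781-53473030, minus strand).
Hand2: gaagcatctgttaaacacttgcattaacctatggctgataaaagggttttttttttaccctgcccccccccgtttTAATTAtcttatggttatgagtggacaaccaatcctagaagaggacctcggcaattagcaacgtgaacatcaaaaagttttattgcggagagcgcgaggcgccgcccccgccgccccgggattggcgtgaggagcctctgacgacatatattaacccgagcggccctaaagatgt
Msx2: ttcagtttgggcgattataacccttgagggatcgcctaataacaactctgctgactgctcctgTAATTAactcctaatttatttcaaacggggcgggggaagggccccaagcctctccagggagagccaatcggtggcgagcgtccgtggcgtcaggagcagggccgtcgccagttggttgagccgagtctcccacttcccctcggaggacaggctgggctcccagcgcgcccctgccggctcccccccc

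Genes of the proximal arch were mostly lower distally. Of 13 measured, 8 were lower and 3 higher, with a median difference of -0.64, against 9.26% and 9.83% of all genes. Barx1, a homeobox factor of the molar field, had 10.29, 10.26 and 10.28 distally, against 11.75, 11.66 and 11.74 proximally. The groups were tight and 2.72-fold apart (-1.44, SE 0.13, adjusted p = 5.94e-12, limma). Dlx1 (-1.27) and Dlx2 (-1.20), homeobox factors that both jaws express, were lower too. Shox2, a homeobox factor of limb and jaw skeleton, had 8.21, 8.24 and 8.42 distally, against 9.95, 10.04 and 9.96 proximally. Emx2 had 7.38, 7.46 and 7.50 distally, against 9.13, 9.10 and 9.05 proximally. In both, each distal array was over 1 log2 unit below each proximal array. Pou3f3 (-1.15), Nr2f2 (-0.64) and Irx5 (-0.30) were also lower. The Notch ligand Jag1 (0.79) and the cofactors Meis1 (0.51) and Meis2 (0.76) were higher distally. Nr2f1 (-0.47, adjusted p = 0.0724) and Irx3 (-0.01) were not called. Meis1 was not called with all its probe sets averaged (0.19, adjusted p = 0.238). Irx5 lost its call without distal replicate 1 or 2 or proximal replicate 1 or 3 (-0.30 to -0.27, adjusted p from 0.0645 to 0.0979).

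**Figure D3:**
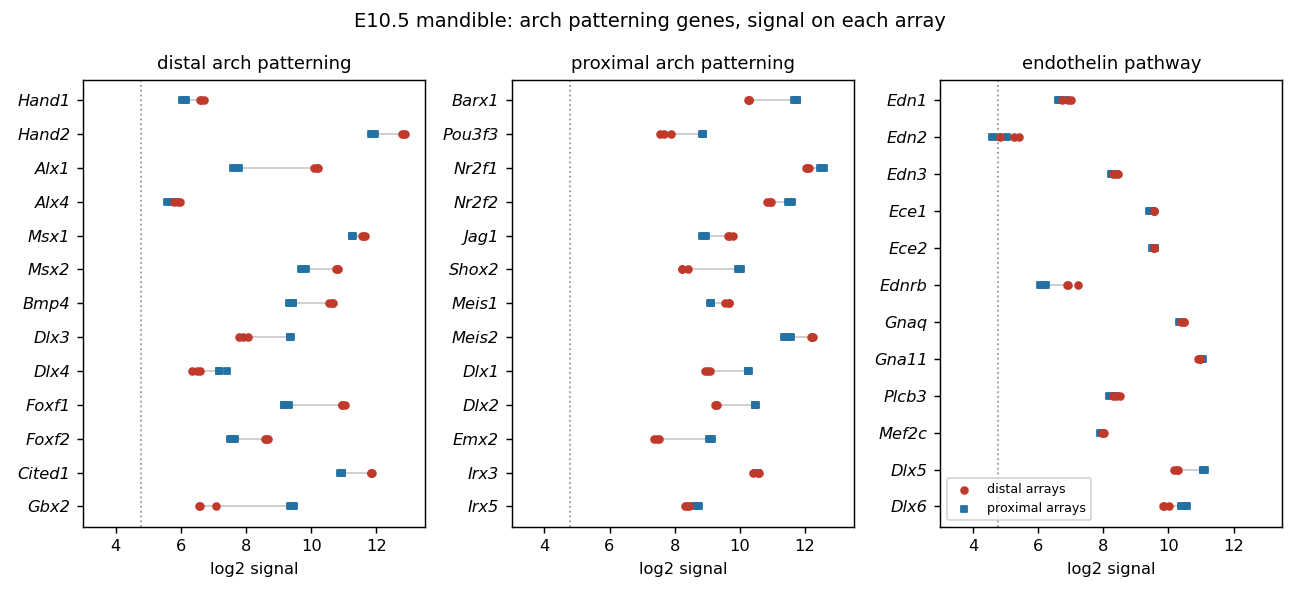
Log2 signal on each array of the E10.5 mandible for the distal arch, proximal arch and endothelin lists. Red circles are distal arrays, blue squares proximal arrays, the grey line joins the group means and the dotted line is the floor of 4.78. Hand2 averages 12.83 distally and 11.91 proximally, Barx1 10.27 distally and 11.72 proximally, and the Edn1 arrays overlap.

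In the endothelin pathway, 1 of 12 measured genes was higher and 2 were lower, with a median of 0.08, against 9.83% and 9.26% of all genes. The ligand Edn1 had 6.73, 7.02 and 6.90 distally, against 6.62, 6.87 and 6.65 proximally. The groups overlapped and the difference of 0.17 was not called (adjusted p = 0.285, limma). The receptor Ednrb was higher distally (0.86). The effectors Dlx5 and Dlx6 were both lower. Dlx5 had 10.31, 10.17 and 10.25 distally, against 11.06, 11.06 and 11.13 proximally, a difference of -0.84, and Dlx6 differed by -0.60 (adjusted p = 0.0209). Without distal replicate 3 or proximal replicate 2, 2 genes of the list were higher in place of 1. Dlx6 was not called without distal replicate 1 or 3 or proximal replicate 1 or 2 (-0.59 to -0.56, adjusted p from 0.0632 to 0.075). Ednra, the receptor of the crest mesenchyme, was not analysed here.

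Among 12 regulators of the oral and aboral sides of the arch, 8 were lower distally and 1 higher, with a median of -0.61. Over all genes the shares were 9.26% and 9.83%. Pitx1, a homeobox factor of the oral ectoderm and the underlying mesenchyme, had 9.92, 9.88 and 9.86 distally, against 11.35, 11.28 and 11.21 proximally. Pax9, a factor of tooth mesenchyme and pharyngeal endoderm, had 5.34, 5.65 and 5.63 distally, against 7.08, 6.86 and 6.83 proximally. Both were separated between pieces, by -1.39 for Pitx1 and -1.38 for Pax9. The Fgf8 targets Lhx6 (-1.25) and Lhx8 (-0.54) were lower, with Osr2 (-1.12), Six2 (-0.79), Tbx2 (-0.68) and Tbx3 (-0.22). Eya2 was higher (0.55). Tbx3 lost its call without distal replicate 2 or 3 or proximal replicate 1 or 3 (adjusted p from 0.0666 to 0.113), and with probe sets averaged. The aboral factor Gsc (0.45, adjusted p = 0.153) and Osr1 (0.37, adjusted p = 0.11) were not called. The tooth development list overlaps these lists and gave 3 higher and 7 lower of 16 (1 higher without distal replicate 2 or proximal replicate 2).

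The Fgf pathway was lower distally at the level of its ligand Fgf8 and of several feedback targets. Fgf8 had 6.87, 7.25 and 7.16 distally, against 8.97, 8.80 and 8.79 proximally, a 3.39-fold difference (adjusted p = 4.68e-10, limma). Dusp6, a phosphatase induced by Fgf signalling that acts on ERK, had 11.15, 11.08 and 11.19 distally, against 12.01, 11.998 and 12.01 proximally. Every distal array of both genes was below every proximal one. The feedback inhibitors Spry1 (-0.72), Spry2 (-0.39), Spry4 (-0.89) and Il17rd (-0.42) were lower, as was the ETS factor Etv4 (-0.67). Etv5 was not called (-0.23, adjusted p = 0.0667). The receptors Fgfr2 (0.61) and Fgfr3 (0.58) and the ligand Fgf9 (0.31) were higher. With probe sets averaged, Spry2 (-0.15, adjusted p = 0.274) and Fgfr3 were not called. The calls of Fgf9 (adjusted p up to 0.0814) and Fgfr3 (up to 0.218) rested on single arrays, Fgf9 on distal replicates 1 and 2 and proximal replicates 1 and 2, Fgfr3 on distal replicates 2 and 3 and proximal replicate 1. In all, 3 of 23 measured genes were higher and 7 lower, with a median of -0.07, against 9.83% and 9.26% of all genes. Without distal replicate 2 or proximal replicate 1, 1 was higher.

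The Bmp pathway was higher distally, with 12 of 22 measured genes higher and 4 lower, and a median of 0.34. Over all genes the shares were 9.83% and 9.26%. The ligands Bmp2 (0.56), Bmp4 (1.22) and Bmp5 (1.10) were higher. So were the intracellular targets Id1 (0.58), Id2 (0.60), Id3 (0.46) and Id4 (1.21), and the inhibitors Smad6 (0.65) and Smad7 (0.22). The pseudoreceptor Bambi, an inhibitor that Bmp signals induce, had 11.29, 11.26 and 11.26 distally, against 10.18, 10.13 and 10.19 proximally, a difference of 1.10 (SE 0.09, adjusted p = 5.42e-14, limma). Of the secreted antagonists, Grem1 and Fst were higher, Chrd (-0.36) and Chrdl1 (-0.58) were lower, and Nog was under the floor in both pieces. The receptor Bmpr1b had 8.12, 8.20 and 8.35 distally, against 9.68, 9.74 and 9.66 proximally, with no overlap and a difference of -1.47. Bmpr1a differed by -0.14 and was called lower. The count of lower genes was 2 without distal replicate 3 or proximal replicate 3. Chrd lost its call without distal replicate 1 or 3 or proximal replicate 3 (adjusted p from 0.121 to 0.21), Chrdl1 without distal replicate 3 (0.0686) and Bmpr1a without proximal replicate 3 (0.0741). Bmp2 lost its call without distal replicate 3 or proximal replicate 1 (0.064 and 0.0746) and Smad7 without distal replicate 1 (0.0554).

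In the hedgehog pathway the ligand Shh, the receptor Ptch1 and some of the targets were higher distally. Shh had 10.51, 10.46 and 10.45 distally, against 9.56, 9.39 and 9.40 proximally, a difference of 1.02 (SE 0.23, adjusted p = 5.39e-04, limma). Ptch1, the receptor that is itself a target, had 12.30, 12.27 and 12.31 distally, against 11.68, 11.70 and 11.71 proximally. Neither gene's groups overlapped, and the lowest distal array of Shh was well above the highest proximal one. The effectors Gli1 (0.35), Gli2 (0.13) and Gli3 (0.17) were higher, as were the forkhead targets Foxf1, Foxf2 and Foxd2 (1.25). With all probe sets of a gene averaged in place of the brightest, Ptch1 was not called (0.18, adjusted p = 0.131), and Gli2 gave -0.028 and Gli3 -0.006, neither of them called. Gli2 and Gli3 each also lost the call when any of 4 single arrays was left out: distal replicates 2 and 3 and proximal replicates 1 and 3 for Gli2, distal replicates 1 and 2 and proximal replicates 1 and 3 for Gli3 (adjusted p up to 0.165 and 0.0915). The coreceptors Boc (-0.43) and Gas1 (-0.33) were lower. The targets Hhip (0.41, adjusted p = 0.0593), Foxd1 (0.36) and Foxl1 (-0.06) and the transducer Smo (-0.03) were not called. The list gave 8 higher and 2 lower of 17, with a median of 0.17, against 9.83% and 9.26% of all genes.

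Retinoic acid genes went both ways. Rdh10, which makes retinaldehyde, had 9.77, 9.84 and 9.82 distally, against 9.07, 9.003 and 8.94 proximally. Cyp26a1, which breaks down retinoic acid, had 6.61, 6.50 and 6.77 distally, against 7.98, 7.82 and 7.80 proximally. Neither gene's groups overlapped, and the differences were 0.81 for Rdh10 and -1.24 for Cyp26a1. Cyp26b1 was lower too (-0.78). Dhrs3 (0.49) and the receptor Rarb (0.75), itself a target of retinoic acid, were higher. The receptors Rara (-0.36) and Rarg (-0.38) and the binding proteins Crabp1 (-0.39) and Crabp2 (-0.31) were lower, and the synthetic enzyme Aldh1a2 was not called (-0.28). In all, 3 of 13 were higher and 6 lower, against 9.83% and 9.26% of all genes. The call of Rara was lost without distal replicate 3 or proximal replicate 2 (-0.24 and -0.23, adjusted p up to 0.184).

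**Figure D4:**
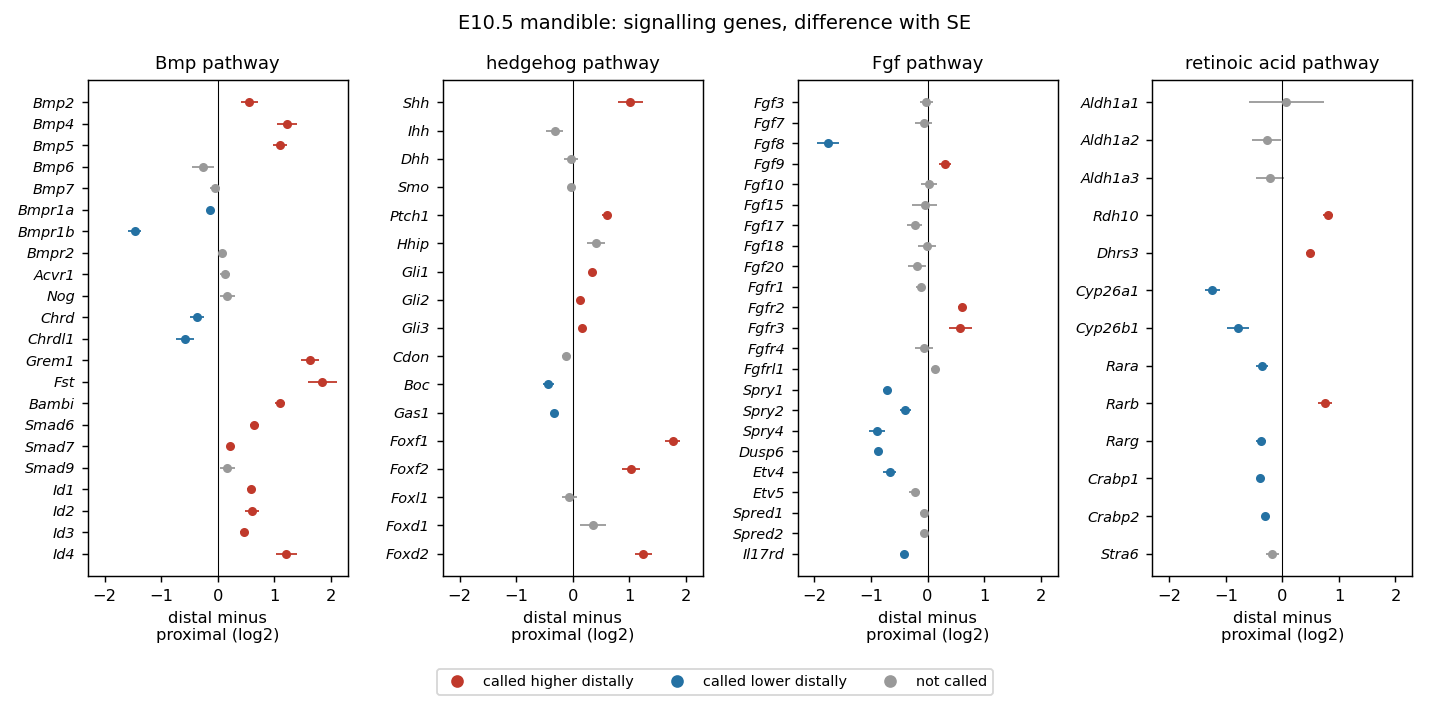
Distal minus proximal difference (log2) with its SE for the measured genes of the Bmp, hedgehog, Fgf and retinoic acid lists in the E10.5 mandible. Red points were called higher distally, blue points lower, grey points were not called. Bmp4 lies at 1.22 and Shh at 1.02, while Fgf8 lies at -1.76 and Cyp26a1 at -1.24.

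Wnt and Notch genes moved both ways. Of 33 Wnt genes, 9 were higher and 5 lower, where 9.83% of all genes were called higher and 9.26% lower. Beside Dkk1, the inhibitor Notum (0.63) and the ligand Wnt2 (0.61) were higher, and the feedback target Axin2 (-0.67), the antagonist Sfrp2 (-0.52) and the agonist Rspo3 (-0.71) were lower. Axin2 had 9.01, 8.99 and 9.03 distally, against 9.72, 9.68 and 9.64 proximally, with no overlap. Of 17 Notch genes, 3 were higher and 5 lower. The ligands Dll1 (-0.71), Dll3 (-1.29) and Dll4 (-0.58) and the receptors Notch1 (-0.50) and Notch2 (-0.48) were lower, whereas the ligand Jag1 was higher. Notch2 was not called with probe sets averaged (-0.17, adjusted p = 0.107). Of 13 Hox genes, which the first arch is known to lack, Hoxa2 was called higher (0.83, adjusted p = 0.0304, limma) and Hoxb1 lower, the second with both means under the floor. Hoxa2 lost its call without distal replicate 3 or proximal replicate 1 or 3 (0.60 to 0.81, adjusted p up to 0.213).

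Markers of other tissues in the pieces were counted too, where 9.83% of all genes were called higher and 9.26% lower. Surface epithelium gave 11 higher and 0 lower of 19 (0 lower at an unadjusted p under 0.05 as well), with a median of 0.32. The count of higher genes was 8 to 10 when 1 array was left out. The summed signal of the epithelial list was 14800 to 15500 distally, against 10900 to 11000 proximally. The keratin Krt18 had 11.39, 11.42 and 11.44 distally, against 10.496, 10.45 and 10.43 proximally (0.96), and its partner Krt8 differed by 0.90. Cldn7 (0.52), Grhl3 (0.55), Cdh1 (0.46) and Esrp1 (0.37) were higher as well. These epithelial values lie beside those of Shh, Bmp4 and Fgf8, which are expressed in surface layers, and their part in those differences was not tested.

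Macrophage genes gave 7 higher of 13, with 0 lower at an adjusted or unadjusted p under 0.05, led by the complement genes C1qa (0.83), C1qb (0.76) and C1qc (0.76), with Csf1r (0.65). C1qb was not called with its probe sets averaged. Their sum was 2180 to 2380 distally, against 1620 to 1750 proximally. Of 14 genes of the vessel lining, 6 were higher, among them Emcn (0.65) and Cldn5 (0.58), and Pecam1 was lower (-0.33). Leaving out 1 array gave 4 to 5 higher. Of 17 neuronal genes, Gap43 (1.19), Dcx (1.44) and Nefm (1.10) were higher and 0 lower at an adjusted or unadjusted p under 0.05, with a sum of 4190 to 4430 distally, against 2300 to 2410 proximally. Pharyngeal endoderm gave Foxa1 (1.15), Foxa2 and Sox17 (0.50) higher and Pax9 lower among 10. Of 7 markers of crest glia, Erbb3 was higher (0.36) and Fabp7 lower (-1.41), single calls against 9.83% and 9.26% of all genes. Without distal replicate 1 or 2 or proximal replicate 1 or 3, 2 of them were lower, and Erbb3 was not called with probe sets averaged (0.21, adjusted p = 0.0686) or with only batch 3. The part of nerve and endoderm in the values of Nhlh2, Isl1 and Foxa2 was not tested. Red blood cell genes gave 0 calls among 10 by limma, and 0 at an unadjusted p under 0.05, with a sum of 58700 to 58900 distally, against 57300 to 58200 proximally. Of 6 pigment cell genes, 0 were called by limma, and 1 was higher at an unadjusted p under 0.05.

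Of 16 crest mesenchyme genes, 6 were lower distally and 3 higher, among them Prrx1 (-0.34), Tfap2b (-0.92) and Foxc1 (-0.59) lower, and Snai1 (0.47) and Snai2 (0.39) higher. Sox9, the master factor of cartilage, had 8.82, 8.70 and 8.96 distally, against 9.81, 9.71 and 9.79 proximally, a difference of -0.94. Its targets Col2a1 (-1.02) and Hapln1 (-1.15) and its partner Sox6 (-0.89) were lower too, while Col9a2 was higher (0.90), among 15 cartilage genes. Hapln1 was not called with probe sets averaged (-0.71, adjusted p = 0.0836). Of 19 cell cycle genes, 6 were lower and 0 higher by limma (2 higher at an unadjusted p under 0.05), by small amounts such as -0.33 for the kinase Plk1 and -0.26 for the helicase subunit Mcm3. Of the 6, Mcm3 (-0.05, adjusted p = 0.467), Ccna2, Mcm6, Rrm2 and Tyms were not called with probe sets averaged. Rrm2 also lost its call without distal replicate 2 or 3 or proximal replicate 1 or 3. Tyms lost its call without distal replicate 1 or proximal replicate 1 or 3. The count of lower genes in the list was 4 to 9 under the alternatives. Among 12 hypoxia targets, Egln3 (1.33), Ndrg1 (0.44) and Bnip3 (0.28) were higher and Hk2 (-0.23) lower. Ndrg1 lost its call without distal replicate 3 or proximal replicate 1 or 3 (adjusted p up to 0.0997) and with probe sets averaged, and Hk2 without distal replicate 2 or proximal replicate 1 (up to 0.0925). Among 13 immediate early and heat shock genes, Fos (0.61) and Jun (0.71) were higher and Ier2 (-0.40) lower. For all lists of this paragraph, the shares over all genes were 9.83% higher and 9.26% lower.

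The same position difference in the mandible at E11.5 was then measured on 6 other arrays of the same labelled batch. Of the 15 leading higher genes, 11 were called higher at E11.5 and none lower, where 3.18% of all genes were called higher, and their median difference was 1.24. Of the 15 leading lower genes, 5 were called lower and none higher, where 5.75% were called lower, with a median of -0.54. Alx1 averaged 11.63 distally and 7.88 proximally at E11.5, a difference of 3.74. Gbx2 averaged 4.85 distally and 7.85 proximally (-3.005), and Sim2 4.58, under the floor, distally and 8.32 proximally. Rgs5 was closer, at 8.59 distally and 7.70 proximally (0.89). Over all genes, 236 were higher at both ages, which is 13.2% of those higher at E10.5 and 40.8% of those higher at E11.5. A further 340 were lower at both ages (20.2% and 32.5%). In opposite directions, 106 were higher at E10.5 and lower at E11.5 (5.93% and 10.1%) and 32 the reverse (1.9% and 5.54%).

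The heart muscle genes gave smaller differences at E11.5. Myl2 averaged 4.31 distally and 4.42 proximally at that age, both under the floor, and Myl7 5.78 distally and 5.73 proximally. In Actc1, the distal mean was 11.70 and the proximal mean 12.25. In the heart muscle list, 18, 6, 12, 13 and 13 of 25 genes were lower distally from E10.5 to E14.5. The medians of the list were -2.04, -0.01, -0.23, -0.72 and -0.48, and the share of all genes called lower was 9.26%, 5.75%, 17.3%, 12.9% and 11.8%. Myl2 averaged 4.48 distally and 4.55 proximally at E12.5, 4.08 distally and 5.96 proximally at E13.5, and 4.49 distally and 10.06 proximally at E14.5, and was again called lower at the last 2 ages. Myl7 differed by 0.01, 0.14 and 0.04 at E12.5, E13.5 and E14.5, and Tnnt2 by -4.93, -2.28 and -1.02. The level in both pieces differed between members of the list. At E14.5 Tnnt2 averaged 10.87 distally and 11.89 proximally, and Actc1 13.7 distally and 14.12 proximally. Myl7 averaged 5.73 distally and 5.69 proximally at that age, and Tnni3 5.24 distally and 5.15 proximally. The part of other muscle in the later counts of the heart muscle list was not tested. The distal arch list had 8, 8, 10, 8 and 9 of 13 higher over the 5 ages, where 9.83%, 3.18%, 15.4%, 12.4% and 15% of all genes were called higher, and Alx1 differed by 5.74, 5.35 and 4.86 at the last 3. The proximal arch list had 8, 11, 8, 6 and 6 of 13 lower. Fgf8 differed by -1.15 at E11.5 and by 0.23, -0.12 and -0.33 after it.

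The change of the difference between E10.5 and E11.5 was tested as an interaction in limma. It was called for 2154 genes (11.8%), of which 1306 changed upward (7.18%) and 848 downward (4.66%), upward meaning a higher distal minus proximal value at E10.5. In the heart list, 17 of 25 changed downward and none upward. The largest were Myl2 (-7.09), Myl7 (-5.11), Myh6 (-3.96), Tnnt2 (-3.65) and Myl4 (-3.19). The proximal arch list had 9 of 13 upward and none downward, and the macrophage list 11 of 13 upward and none downward. Synpo2 changed most among the leading higher genes, with a difference of 2.48 at E10.5 and -0.32 at E11.5. The matrix proteoglycan Dcn had 1.13 at E10.5 and -1.74 at E11.5, the neurofilament gene Nefm 1.10 and -1.67, and Prap1 1.43 and -1.15. Dlx1as, antisense to Dlx1, had -1.58 at E10.5 and -4.33 at E11.5, and signal from overlapping transcripts cannot be told apart there.

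Of the E11.5 mandible arrays, 2 stood apart with raised medians, distal replicate 3 at 6.314 and proximal replicate 1 at 6.253. Leaving out both gave 1982 calls, 64.7% of them upward, against 60.6% with all arrays. Without distal replicate 3 alone 75.7% were upward, and without proximal replicate 1 alone 47.9%.

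In the maxilla at E10.5 the same genes behaved differently by group. Of the 15 leading higher genes, 5 were higher and 2 lower in the maxilla, where 12.1% of all genes were called higher and 8.1% lower. Of the 15 leading lower genes, 4 were lower and none higher. Alx1 averaged 11.28 distally and 8.42 proximally in the maxilla, and Dkk1 differed by 2.45. Isl1 ran the other way, with 10.38 distally and 12.51 proximally, as did Nhlh2 with 7.86 distally and 11.06 proximally. Fgf8 averaged 8.51 distally and 7.58 proximally. Over all genes, 426 were higher in both jaws (23.8% of those in the mandible and 19.4% of those in the maxilla) and 215 lower in both (12.8% and 14.6%), while 224 were higher in the mandible and lower in the maxilla and 337 the reverse.

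The difference between the jaws at E10.5 was called for 3756 genes (20.6%), 1644 upward (9.04%) and 2112 downward (11.6%), upward meaning a higher distal minus proximal value in the mandible. Neuronal genes led the upward side, with 15 of 17 on the list. Nhlh2 changed by 5.75, Rgcc by 4.81, Dcx by 4.41, Isl1 by 3.87 and Nefm by 3.74. Heart muscle genes led the downward side, with 16 of 25, Myl2 by -7.11 and Myl7 by -5.15. The surface epithelium list had 14 of 19 downward, the Wnt list 18 of 33 and the Fgf list 11 of 23. The mandible and maxilla arrays of this age carry different batch labels, 3 and 4. A shift shared by both pieces of a jaw cancels in this difference, while a difference in scale between the batches would not and was not tested.

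**Figure D5:**
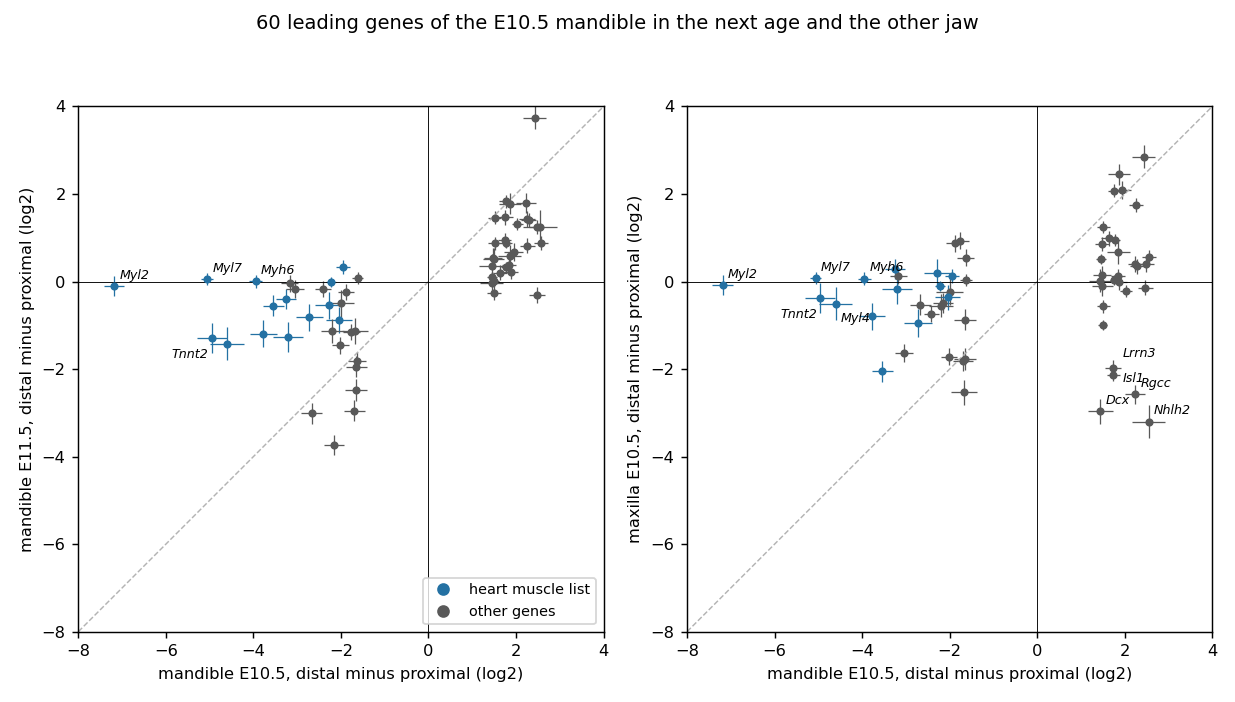
Distal minus proximal difference (log2, bars are SE) of the 60 leading genes of the E10.5 mandible on the horizontal axis, against the same difference in the E11.5 mandible (left) and in the E10.5 maxilla (right). Blue points are on the heart muscle list, and the dashed line marks equal differences. Myl2 lies at -7.19 on the horizontal axis and near 0 on both vertical axes, and Isl1 lies at 1.74 on the horizontal axis and at -2.13 for the maxilla.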

How the data were processed

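Total RNA of 60 mandible and maxilla pieces was hybridised to Affymetrix arrays. The deposited table holds log2 signals made with RMA, per the submitters' processing notes. The RMA version, and whether all arrays were normalized together, are not given in the sources used here. Of 45101 probe sets, 64 are controls, 34945 have 1 gene symbol, 932 several and 9160 none; 34741 matched RefSeq by gene ID. The brightest probe set stood for each of 18193 genes, 9010 of which have several.

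Differences were fitted with limma 3.58.1 (R 4.3.3, lmFit and eBayes with trend) over 20 groups of 3 arrays, with 40 residual degrees of freedom, and adjusted over all genes by Benjamini-Hochberg. The interactions came from the same fit. The script was tested on simulated data. The number of arrays limits the precision. Where a group mean was at or under the floor, a fold is a lower bound against the floor. List sums are of linear signals.

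The leading genes are the 15 called genes per direction with the largest difference, separated arrays and a mean of at least 6 in the higher group, without predicted models and sex-linked genes (5 per direction, without the separation, for interactions). Ranks 16 to 30 were added after their values were seen. Within lists, the 6 called members of lowest p are named, or any member of lists of 15 or fewer and of the arch, signalling (Fgf, Bmp, hedgehog, retinoic acid) and heart lists. The members and lists were chosen with earlier results of these data known. Alternatives covered normalization, centring, dim genes, probe sets, eBayes settings, array weights, batches, a replicate block and single arrays left out. Same-numbered arrays did not deviate together (r of their deviations -0.061, -0.033 and -0.102).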

Additional observations from a re-analysis of the deposited data

Results flagged for a closer look

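The position difference of the E10.5 mandible was set against that of the E11.5 mandible and of the E10.5 maxilla by an interaction term in limma, and the results where the difference itself passed the test are given as values. Between E10.5 and E11.5, 2154 genes changed. The largest upward changes were Dcn (2.87), Synpo2 (2.79), Nefm (2.77), Dlx1as (2.75) and Prap1 (2.58). The largest downward changes were Myl2 (-7.09), Myl7 (-5.11), Myh6 (-3.96), Tnnt2 (-3.65) and Myl4 (-3.19). All of these arrays carry the label batch 3.

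Between the mandible and the maxilla at E10.5, 3756 genes differed. The largest upward differences were Nhlh2 (5.75), Rgcc (4.81), Dcx (4.41), Isl1 (3.87) and Nefm (3.74), and the largest downward ones Myl2 (-7.11), Myl7 (-5.15), Tnnt2 (-4.57), Myl4 (-4.10) and Myh6 (-4.02). These jaws lie in batches 3 and 4. Group means at or under the floor enter the values of Myl2, Myh6, Tnnt2 and Nhlh2 and, between the jaws, Myl4, so their sizes are uncertain.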

How the results depend on the processing

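The count of 3474 position calls in the E10.5 mandible lay between 2806 (only batch 3) and 4917 (array quality weights) under the other alternatives, except for each probe set as a unit (6093 of 34945) and an adjusted p under 0.01 (2284), where the number of units tested or the threshold itself moved. Leaving out 1 array gave 2637 to 3199. The 2154 calls of the change between E10.5 and E11.5 gave 3609 with each probe set as a unit and 1141 at an adjusted p under 0.01. With only the arrays compared they gave 686, and the cause of that lower count was not tested. The same kind of restriction gave 4685 position calls in the E10.5 mandible. Leaving out 1 array gave 1632 to 2578. Of the 10 genes named there, Myl4 lost its call with only the arrays compared. The 3756 calls between the jaws gave 6257 with each probe set as a unit, and 3282 to 3815 leaving out 1 array. With a replicate block the 3 counts were 3444, 2033 and 3681, but the labels do not say whether the replicate numbers pair the arrays. Centring each array on its median moved the share of upward calls to 48.2% (51.5% without it), 67.9% (60.6%) and 36.5% (43.8%). The 30 leading genes per direction lost no call under any alternative run. They were chosen from these same arrays for large differences and separated arrays, so that result was largely settled by the choice. Gli2 gave -0.028 and Gli3 -0.006 with all probe sets of a gene averaged, reversed and not called, and the cause was not tested. Among 159 called list members, 22 others lost their call under that averaging, Meis1, Tbx3, Fgfr3, Spry2, Ptch1, Notch2, Mcm3, Ndrg1, Erbb3, C1qb and Hapln1 among them. In lists with 0 or 1 higher call, the count reached 4 for skeletal muscle, 4 for oral and aboral regulators, 2 for red blood cells and 2 for the endothelin list under at least 1 alternative. Signal near the floor limits the size of differences for dim genes.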
